A study of Mus musculus with 42 samples.

Results

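The proteasome subunit genes described here are the mouse genes whose symbol is Psm followed by a, b, c, d or e and a number, without the immunoproteasome genes Psmb8 and Psmb9. There were 40 such genes among the 18194 genes measured, each read on the probe set with the highest mean over all 42 arrays. By role they were 14 constitutive core subunits (7 alpha and 7 beta), 17 subunits of the regulatory particle (6 ATPases and 11 non-ATPases), 3 core subunits that are inducible or belong to 1 tissue (Psma8, Psmb10 and Psmb11), 3 chaperones of base assembly (Psmd5, Psmd9 and Psmd10) and 3 activators (Psme1, Psme3 and Psme4). Psme2 was read only on a probe set that carries 2 symbols and was left out by the rule. No filter on low values was applied, so all 40 genes were tested in every comparison.

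Whole lungs of newborn mice were homogenised and the RNA of each mouse was hybridised to 1 Affymetrix 3′ array, giving 42 arrays in 14 groups of 3. The genotypes were wild type (Nrf+/+ in the labels) and knockout (Nrf-/-), the knockout lacking Nrf2, the antioxidant transcription factor encoded by Nfe2l2. Pups of each genotype were taken at postnatal day 1 (P1), and after 1, 2 or 3 days in room air or in hyperoxia (at least 95% O2 for 23 hours a day, with foster dams also in the chamber), which the labels call P2, P3 and P4. Air pups were kept with foster dams for the same time, and the labels used here give no mouse strain or litter. No label restricts the deletion to a cell type.

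The 26S proteasome degrades proteins marked with ubiquitin. Its core particle is a barrel of alpha and beta rings with 3 kinds of active site, and its regulatory particle binds ubiquitin, removes it, and unfolds the substrate with a ring of ATPases. Nrf1 (Nfe2l1) is known to raise the transcription of most subunit genes together when proteasomes are inhibited, and Nrf2 is known to take part in their induction by oxidants, both through antioxidant response elements.

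Because both factors bind antioxidant response elements, the promoters were searched for the element's core, TGACNNNGC, on both strands of the window from 250 bases before to 50 bases after each start (RefSeq, GRCm38.p6). Of the 40 genes, 33 were matched in the promoter table. The motif was found in 6 of these 33 (18.2%), namely Psmb5, Psmb6, Psmc6, Psmd12, Psmd9 and Psme4, in 12.4% of all 32851 promoters in the table and in 14% of its 27025 genes. The same motif extended by an A at its 3′ end, which overlaps it, was found in 2 of 33 (Psmd12 and Psme4), in 3.04% of all promoters and in 3.45% of the genes. CCAAT, a common promoter box, was found in 13 of 33 (39.4%), in 37.4% of all promoters and in 41.1% of the genes. Of the 6 genes with the motif, Psmd9 and Psme4 had log2 differences of -0.07 and 0.00 after 3 days of hyperoxia in knockout lungs. Psmb5, Psmb6, Psmc6 and Psmd12 rose there, and the other subunits that rose had no match or no entry in the promoter table. In wild-type lungs the differences were 0.30 for Psmb5, 0.15 for Psmb6, 0.11 for Psmc6 and 0.09 for Psmd12. They were -0.05 for Psmd9 and -0.02 for Psme4, and of the 6 only Psmb5 is given below as higher there. The stretches of the 4 genes with the motif that rose in the knockout are shown, a choice made on these same data. They run 5′ to 3′ on the strand of the gene and end at or before the start. The motif is in capitals (its reverse complement in Psmc6 and Psmd12).
Psmb5, chr14:54618004-54618072, minus strand: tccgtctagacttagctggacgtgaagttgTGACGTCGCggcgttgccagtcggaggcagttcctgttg
Psmb6, chr11:70525318-70525356, plus strand: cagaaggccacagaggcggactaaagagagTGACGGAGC
Psmc6, chr14:45329574-45329635, plus strand: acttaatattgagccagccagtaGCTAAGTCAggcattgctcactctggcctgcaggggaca
Psmd12, chr11:107479278-107479319, plus strand: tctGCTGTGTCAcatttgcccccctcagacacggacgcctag
In Psmb5 the motif began 47 bases before the start and in Psmb6 it began 9 bases before it, whereas in Psmc6 and Psmd12 it began 227 and 247 bases before. A match of letters is a description and does not show that a factor binds there.

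Values are log2 values as deposited, so a difference of 1 is a doubling of signal, and a difference ± its standard error (SE) comes from limma fitted to all genes and arrays. A gene was called at a Benjamini-Hochberg adjusted p under 0.05 over all 18194 genes. The labels held for the targeted gene: Nfe2l2 read 10.32 to 11.56 in the 21 wild-type arrays and 4.26 to 5.46 in the 21 knockout arrays. The lung markers Sftpc (14.52 to 14.77), Ager (13.96 to 14.68) and Pecam1 (10.83 to 11.88) were high in all arrays. Markers of other tissues varied between arrays: 17 arrays had a score (mean deviation of a marker list from its median array) above 2 for liver, heart muscle, skeletal muscle or thymocyte genes, and 13 of the 17 were wild type. In homogenate, fewer cells of a type and less RNA per cell cannot be told apart.

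Without the 3 inducible or tissue forms, the subunit genes had small ranges. The range of the 14 group means had a median of 0.38 over these 37 genes (highest 0.63, in Psmb5), against 0.50 over all genes, and the SD within groups had a median of 0.09 against 0.13. For 17 of the 37 the highest group mean was in knockout lungs after 3 days of hyperoxia, and for 5 in wild-type lungs after 3 days of hyperoxia. The lowest group mean was in knockout air P1 lungs for 11, in wild-type air P2 lungs for 10 and in knockout lungs after 1 day of hyperoxia for 7. Psma7, alpha4, moved least, by 0.14, and Psmb1, beta6, by 0.19, both less than 3 times their own SD within groups of 0.09 and 0.07. Psma8, the testis form of alpha4, averaged 4.94 and Psmb11, the thymus form of beta5, averaged 5.01, where the 10th percentile of an array's values was 4.49 to 4.69, so these 2 genes were near the low end of the scale.

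**Figure D1:**
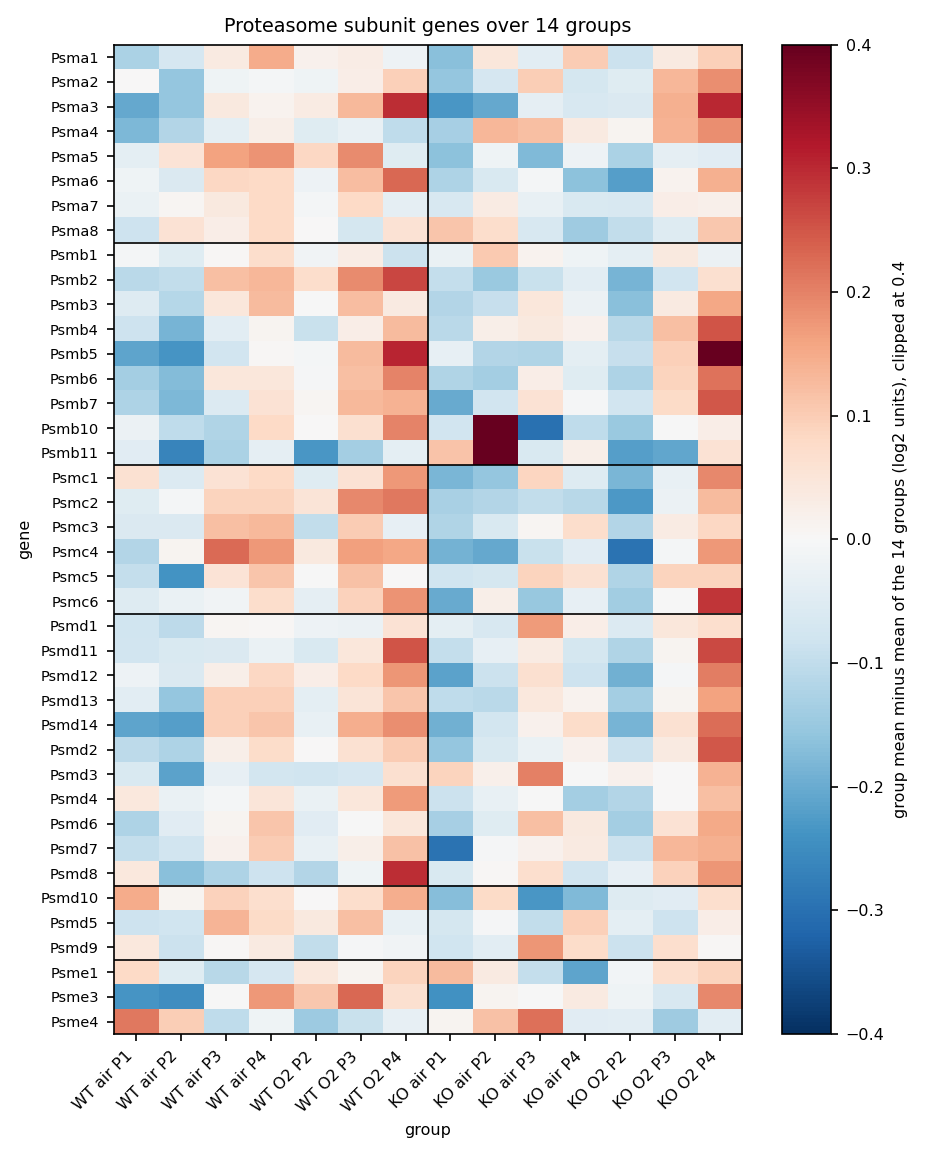
Group means of the 40 proteasome subunit genes (vertical axis, grouped by role with lines between alpha, beta, ATPase, non-ATPase, chaperone and activator genes) in the 14 groups (horizontal axis), as the difference from the gene's mean over groups in log2 units, with colours clipped at 0.4. For 17 of 37 genes the highest cell is knockout hyperoxia P4 and for 5 it is wild-type hyperoxia P4, and Psmb10 and Psmb11 pass the end of the scale in knockout air P2.

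Core and regulatory particle followed nearly the same course. A score for each particle, the mean deviation of its subunits from their own means, ran from -0.25 to 0.19 for the core and from -0.24 to 0.20 for the regulatory particle over the arrays. The scores had r = 0.95 over the 42 arrays, which share RNA, labelling and normalisation between the particles. Core minus regulatory stayed between -0.09 and 0.06, with a within-group SD of 0.03. After 1 day of hyperoxia it was 0.03, 0.03 and 0.03 in wild type and 0.05, 0.05 and -0.00 in the knockout. After 3 days it was -0.09, 0.02 and -0.03 in wild type and -0.01, -0.00 and -0.02 in the knockout. In knockout air P3 it was -0.04, -0.03 and -0.05. The median r between single genes was 0.62 within the core (91 pairs), 0.67 within the regulatory particle (136 pairs) and 0.63 across the particles (238 pairs). With group means removed these were 0.75, 0.71 and 0.70, so mice of the same group also differed along the same direction. The mice of knockout air P2 stood farthest apart, with core scores of 0.19, -0.25 and -0.07 and regulatory scores of 0.15, -0.24 and -0.10. In knockout air P4 replicate 2 was low on both, at -0.17 for the core and -0.17 for the regulatory particle, whereas the other mice had 0.06 and 0.02 for the core and 0.08 and 0.04 for the regulatory particle.
Least like the other genes were the activator Psme4 (median r -0.14) and the activator Psme1 (0.21), the chaperone Psmd5 (0.32) and the alpha subunit Psma5 (0.33).

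**Figure D2:**
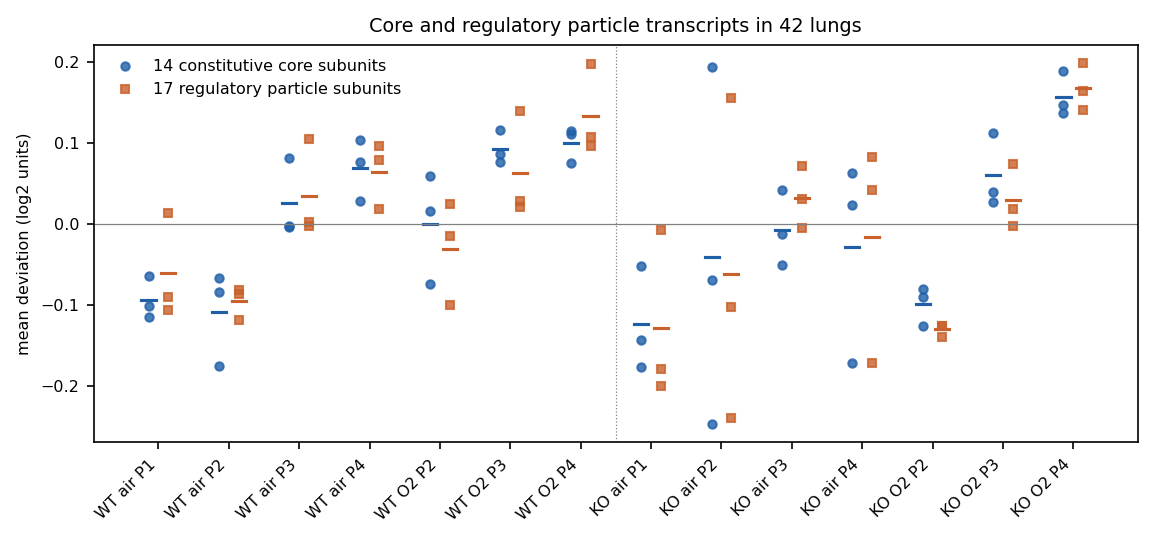
Mean deviation of 14 constitutive core subunits (circles) and 17 regulatory particle subunits (squares) in log2 units for each of 42 lungs, by group, with bars for group means. In each genotype both means are highest after 3 days of hyperoxia (core 0.10 in wild type and 0.16 in the knockout), and the knockout air P2 mice spread from 0.19 to -0.25 for the core.

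The course of normal postnatal age was read in wild-type air lungs, P4 against P1. Of the 40 genes 8 were higher and 1 lower at P4, where 11.2% of all genes were higher and 11.3% lower. The share of subunits that were higher was 20%. The core had 4 of 14 higher (Psma1, Psma3, Psma5 and Psmb5) and a median difference of 0.18, and the regulatory particle had 3 of 17 higher (Psmc4, Psmd6 and Psmd14) and a median of 0.13. The median over all genes was 0.01. The activators split, with Psme3 higher and Psme4 lower.
Psma1, alpha6, read 10.96, 10.95 and 11.03 at P1 and 11.15, 11.31 and 11.32 at P4. All 3 older mice were above all 3 newborns, with a difference of 0.28 ± 0.08 (limma adjusted p = 0.0093). The probe sets of Psma1 disagreed: averaged over its 4 probe sets the difference was -0.08 (limma adjusted p = 0.574). The one used had a mean of 11.11, and the others had means of 6.19, 4.39 and 4.07.
Psma5, alpha5, read 11.49, 11.40 and 11.51 at P1 and 11.65, 11.73 and 11.67 at P4, a separation of 0.22 ± 0.07 (limma adjusted p = 0.0166). Psmd6, a lid subunit known as Rpn7, read 11.22, 11.10 and 11.14 at P1 and 11.37, 11.43 and 11.37 at P4, 0.23 ± 0.07 higher (limma adjusted p = 0.0187). For both genes the groups did not overlap.
Of the active sites, Psmb5, the chymotrypsin-like beta5, read 11.11, 10.93 and 10.92 at P1 and 11.15, 11.18 and 11.28 at P4 and rose by 0.22 ± 0.08 (limma adjusted p = 0.0491). Psmb6, the caspase-like beta1, read 10.72, 10.68 and 10.72 and 10.85, 10.89 and 10.92, a difference of 0.18 ± 0.08 that did not pass (limma adjusted p = 0.0829). Psmb7, the trypsin-like beta2, read 11.83, 11.84 and 11.75 and 11.94, 12.01 and 12.03, 0.18 ± 0.07 apart (limma adjusted p = 0.079). Of the 3 active sites, 1 crossed the threshold, although in none of them did the P1 and P4 mice overlap.
Psme3, PA28 gamma, an activator of the nuclear proteasome, read 9.01, 8.98 and 9.17 at P1 and 9.36, 9.55 and 9.48 at P4 and rose by 0.41 ± 0.14 (limma adjusted p = 0.0372). Psme4, the activator PA200, read 10.52, 10.36 and 10.42 and 10.18, 10.26 and 10.18 and fell by 0.23 (difference -0.23 ± 0.08, limma adjusted p = 0.0377). Neither pair of groups overlapped.
Proliferation genes rose over the same interval, 11 of 11 with a median of 2.61, from array scores of -1.95 to -1.60 at P1 to 0.75 to 0.85 at P4. Their part in the subunits' rise was not tested. The count was not firm: it was 2 without replicate 2 of wild-type air P1, 3 without its replicate 3, and 5, 2 and 2 without replicates 1, 2 and 3 of wild-type air P4, and 3 with marker scores of other tissues as covariates.
The rise was already in part present at P3, where Psma3 (0.25), Psma5 (0.20), Psmc4 (0.34) and Psmd14 (0.31) were higher than at P1 and Psme4 lower (-0.31), 4 and 1 of 40 where 11.2% of all genes were higher and 9.42% lower. At P2 only Psmd8 was called, -0.21 (14.5% of all genes were called). These comparisons share the P1 mice, and the comparison of hyperoxia with air shares the P4 air mice.
In the knockout air lungs at P3 against P1, 7 subunits were higher (Psma2, Psma4, Psmb7, Psmd6, Psmd7, Psmd9 and Psmd12, by 0.25 to 0.32) and Psme1 was lower (-0.22), where 12.8% of all genes were called. Replicates 2 and 3 of knockout air P3 had skeletal muscle scores of 5.77 and 2.38. The P3 comparisons were not fitted without them. At P2 4 were higher (Psmb11, Psmb10, Psmd7 and Psma4), where 13.3% were called, and without the thymocyte-high mice described below Psmb10 and Psmb11 gave 0.00 and 0.06 on the 1 mouse left in that group. At P4 against P1, Psma1 (0.27) and Psmd7 (0.33), the lid subunit Rpn8, were higher and Psme1 (-0.34) was lower, where 21.6% of all genes were called. The difference between genotypes in this course was called for 0 of 40 subunits by limma, with 1 at an unadjusted p under 0.05, where 0.0275% of all genes were called.

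Genotype in air was read as the knockout minus wild-type difference averaged over P1 to P4, 12 mice against 12. The labels used here give no strain or litter, so other differences between the genotypes cannot be told apart from loss of Nrf2. Psmd3, Psma4 and Psmb11 were higher in the knockout, and Psma5, Psma6, Psmc2, Psmc4 and Psmd10 lower. That is 8 of 40, where 29.0% of all genes were called (14.5% higher and 14.4% lower). The subunits' share, 20%, was not above the background. The core median was -0.01 and the regulatory median -0.04. The call of Psma6 (-0.11) was not firm: it ended in 16 of 24 fits that each left out 1 mouse. A second probe set of Psma6 gave 0.04.
Psma5 ranged from 11.40 to 11.73 (median 11.62) in wild type and from 11.27 to 11.63 (median 11.38) in the knockout, and its mean was lower at all 4 ages, by 0.18 on average (difference -0.18 ± 0.03, limma adjusted p = 0.000111). The groups overlapped, most at P2. A second probe set of Psma5 gave -0.04.
Psmd10, the base chaperone gankyrin, ranged from 8.47 to 8.75 (median 8.66) in wild type and from 8.26 to 8.88 (median 8.36) in the knockout, a difference of -0.21 ± 0.05 (limma adjusted p = 0.00128) with the lower mean at 3 of 4 ages. Psmc4, the ATPase Rpt3, ranged from 10.96 to 11.42 (median 11.21) in wild type and from 10.80 to 11.18 (median 11.02) in the knockout, -0.20 ± 0.05 on average (limma adjusted p = 0.00239), lower at all 4 ages. A second probe set of Psmc4 gave 0.04, and averaging its probe sets ended the call (limma adjusted p = 0.147).
Psmd3, the lid subunit Rpn3, ranged from 9.44 to 9.75 (median 9.65) in wild type and from 9.57 to 10.01 (median 9.83) in the knockout, higher by 0.17 ± 0.04 (limma adjusted p = 0.00065) and at all 4 ages. Psma4, alpha3, ranged from 11.22 to 11.53 (median 11.35) and from 11.18 to 11.76 (median 11.51), higher by 0.12 ± 0.04 (limma adjusted p = 0.0289). Psmb11 ranged from 4.72 to 5.25 (median 4.84) and from 4.68 to 7.13 (median 5.08), higher by 0.43 ± 0.12 (limma adjusted p = 0.00946).
At P1 alone the call was Psmd10, with a difference of -0.32, where 6.78% of all genes were called. At P2 Psmb10, Psmb11, Psmd3 and Psma4 were higher, where 13.1% of all genes were called, and none of these 4 calls held without the thymocyte-high mice, on the 1 mouse left in that group (limma adjusted p = 0.264 to 0.938). At P3 Psmd3 (0.23), Psmd8 (0.19) and Psme4 were higher and Psma5 (-0.34), Psmc4 (-0.31) and Psmd10 (-0.32) lower, where 21.6% were called. Replicates 2 and 3 of knockout air P3 had skeletal muscle scores of 5.77 and 2.38. Those of wild-type air P3 had liver scores of 5.75 and 2.94. The part of these tissues in the P3 calls was not tested. At P4 0 of 40 subunits were called by limma, with 6 at an unadjusted p under 0.05, where 0.726% of all genes were called. Over the mean of the ages 10 of 10 thymocyte genes were higher in the knockout, and 9 of 9 liver, 6 of 11 heart muscle and 7 of 9 macrophage genes were lower, and with tissue scores as covariates 7 subunits were called. Knockout air P2 holds 2 mice with thymocyte marker scores of 3.72 and 2.78 (replicates 1 and 3). Leaving them out keeps 1 mouse in that group, so no count over the 40 subunits is given for that fit. At P2 the differences of Psma4 and Psmb11 went from 0.25 and 1.44 to 0.02 and 0.44. Their calls on the mean of the ages ended. What remains of that group is replicate 2, the mouse with the lowest core score of all 42.

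**Figure D3:**
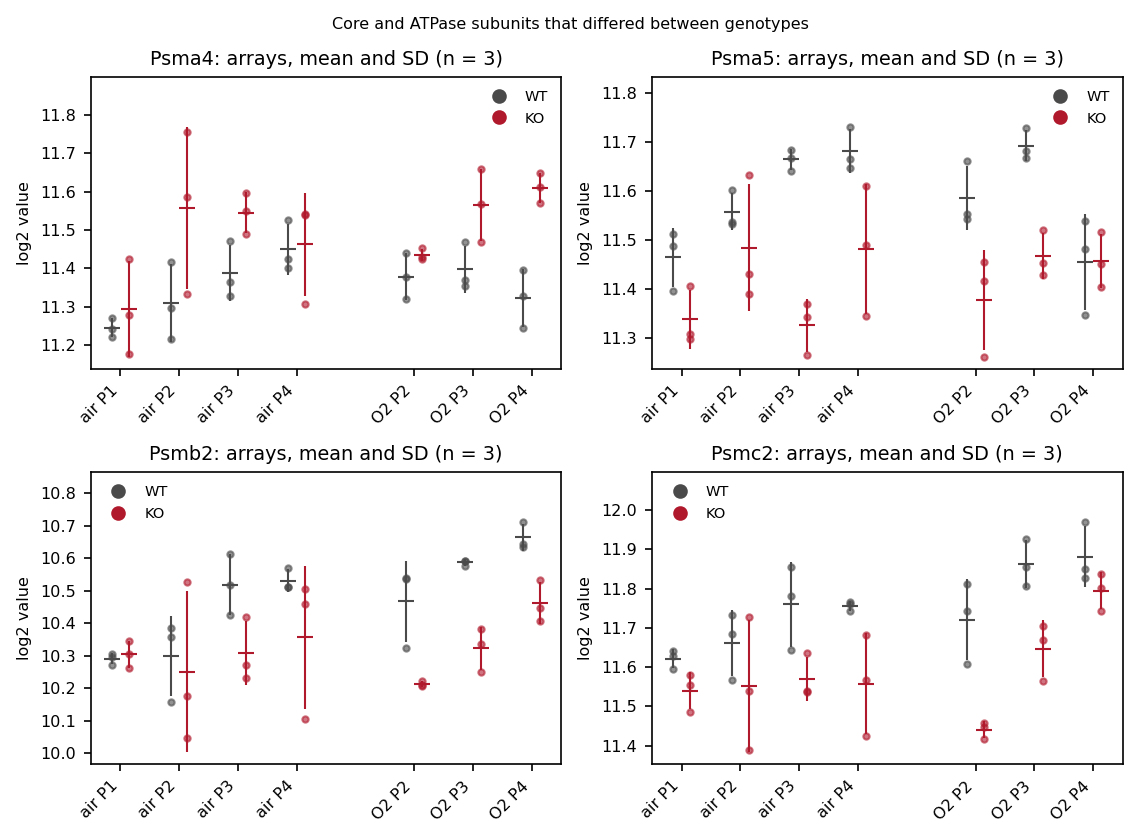
Log2 values of Psma4, Psma5, Psmb2 and Psmc2 (vertical axes) in wild-type and knockout lungs by exposure and age (horizontal axes), 3 mice per group as points with the mean and SD as bars. Psma4 lies higher in the knockout in all 7 pairs of groups, Psmc2 lies lower in all 7, Psma5 lies lower in 6 of 7 and Psmb2 in 6 of 7.

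The effect of hyperoxia in wild type was read after 3 days, against air of the same age. Of 40 subunits, 4 were higher (Psmd8, Psmd11, Psma3 and Psmb5) and 1 lower (Psma5), where 15.0% of all genes were higher and 12.5% lower. The 4 higher subunits were 10% of the members, no more than the background. The core median was 0.09 and the regulatory median 0.08, beside -0.03 over all genes.
Psmd8, the lid subunit Rpn12, read 11.26, 11.27 and 11.31 in air and 11.75, 11.59 and 11.63 in hyperoxia, higher by 0.38 ± 0.07 (limma adjusted p = 7.73e-05). Psmd11, the lid subunit Rpn6, read 11.79, 11.79 and 11.76 and 12.14, 12.05 and 11.99, higher by 0.28 ± 0.06 (limma adjusted p = 0.000932). For both, all 3 exposed mice were above all 3 air mice.
Psma3, alpha7, read 12.01, 12.02 and 12.02 in air and 12.35, 12.27 and 12.27 in hyperoxia (0.28 ± 0.07, limma adjusted p = 0.00385). Psmb5 read 11.15, 11.18 and 11.28 and 11.44, 11.51 and 11.56 (0.30 ± 0.08, limma adjusted p = 0.00451). Psma5 read 11.65, 11.73 and 11.67 and 11.48, 11.54 and 11.35 and went the other way (-0.23 ± 0.07, limma adjusted p = 0.0102).
The other active sites were 10.85, 10.89 and 10.92 and 10.97, 11.06 and 11.09 for Psmb6, 0.15 ± 0.08 apart (limma adjusted p = 0.143). Psmb7 read 11.94, 12.01 and 12.03 and 12.07, 12.10 and 12.03, 0.08 ± 0.07 apart (limma adjusted p = 0.485). Both passed on the mean of the 3 exposure times, at 0.13 for Psmb6 and 0.15 for Psmb7, beside 0.24 for Psmb5. Over that mean 7 subunits were higher and 0 lower, where 14.4% of all genes were higher and 9.53% lower.
After 1 day and after 2 days 0 of 40 subunits were called in wild type by limma, with 7 and 2 at an unadjusted p under 0.05, where 4.33% and 5.40% of all genes were called. Without the arrays that score above 2 for another tissue, which leaves 1 exposed and 2 air mice at P4, only Psmb5 was called.

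In knockout lungs 17 of 40 subunits were higher and 0 lower after 3 days of hyperoxia, a share of 42.5% higher, where 17.0% of all genes were higher and 14.7% lower. The core had 7 of 14 higher with a median of 0.21, the regulatory particle 8 of 17 with a median of 0.22, and all genes had a median of 0.04. For 20 of 40 subunits all 3 exposed mice were above all 3 air mice, a separation that 24.4% of all genes showed.
Psmb5 read 11.25, 11.06 and 11.17 in air and 11.62, 11.61 and 11.57 in hyperoxia, higher by 0.44 ± 0.08 (limma adjusted p = 6e-05). Psmd11 read 11.85, 11.58 and 11.77 and 12.05, 12.09 and 12.08, higher by 0.34 ± 0.06 (limma adjusted p = 9.62e-05). Psma3 read 11.99, 11.81 and 12.01 and 12.39, 12.25 and 12.26, higher by 0.36 ± 0.07 (limma adjusted p = 0.00025). The groups did not overlap for any of the 3, and the gap was widest for Psmb5.
The other active sites passed here too. Psmb6 read 10.86, 10.68 and 10.85 in air and 11.19, 11.03 and 10.96 in hyperoxia, with 0.27 ± 0.08 between the means (limma adjusted p = 0.0067). Psmb7 read 12.02, 11.77 and 11.99 and 12.20, 12.14 and 12.20, with 0.25 ± 0.07 (limma adjusted p = 0.00858). In each gene the lowest air value was that of replicate 2.
Psma2, Psma6 and Psmb4 (0.26, 0.31 and 0.23) complete the core. In the regulatory particle the ATPases Psmc1, Psmc2 and Psmc6 (0.24, 0.24 and 0.32) rose, as did the scaffold Psmd2 (0.23), the ubiquitin receptor Psmd4 (0.26), and the lid subunits Psmd8 (0.26), Psmd11 and Psmd12 (0.29). The deubiquitinase Psmd14, at 0.15 ± 0.11, did not pass (limma adjusted p = 0.309). Beyond both particles, the chaperone Psmd10 (0.24) and the activator Psme1, PA28 alpha, rose. Psme1 read 11.05, 10.94 and 11.14 in air and 11.38, 11.34 and 11.30 in hyperoxia (0.30 ± 0.07, limma adjusted p = 0.00153), with no overlap.
Few were called earlier. After 1 day they were Psmb10 and Psmb11, both lower (-0.65 and -1.40, where 9.06% of all genes were called). Without the thymocyte-high mice, which leaves 1 mouse in knockout air P2, these were -0.07 and -0.40 (limma adjusted p = 0.937 and 0.589). After 2 days the call was Psme4, also lower (-0.36, 12.6% of all genes). Its air reference, knockout air P3, includes replicates 2 and 3, which scored high for skeletal muscle genes (5.77 and 2.38). On the mean of the 3 times 3 were higher (Psma3, Psmb5 and Psme1) and 2 lower (Psmb11 and Psme4), where 13.5% of all genes were higher and 7.28% lower.
The number called depended on single mice. It was 6 without replicate 2 of knockout air P4, the low mouse (core median 0.14, regulatory median 0.14), 9 without replicate 1 of knockout hyperoxia P4, and 5 when the 6 arrays were fitted alone. Psmb5, Psmd11 and Psme1 were called under each of 9 alternative settings, and Psma3 under all but the mean over its probe sets. That mean also ended the calls of Psmc1, Psmc2 and Psmc6 (limma adjusted p up to 0.55), and the other probe sets of Psmc6 gave 0.03 and -0.09. Proliferation genes fell in the same comparison, 11 of 11 with a median of -1.24 (array scores 0.60 to 0.92 in air and -0.71 to -0.07 in hyperoxia), and 5 of 9 macrophage and 4 of 9 neutrophil genes rose. Their part in the subunits' rise was not tested.

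**Figure D4:**
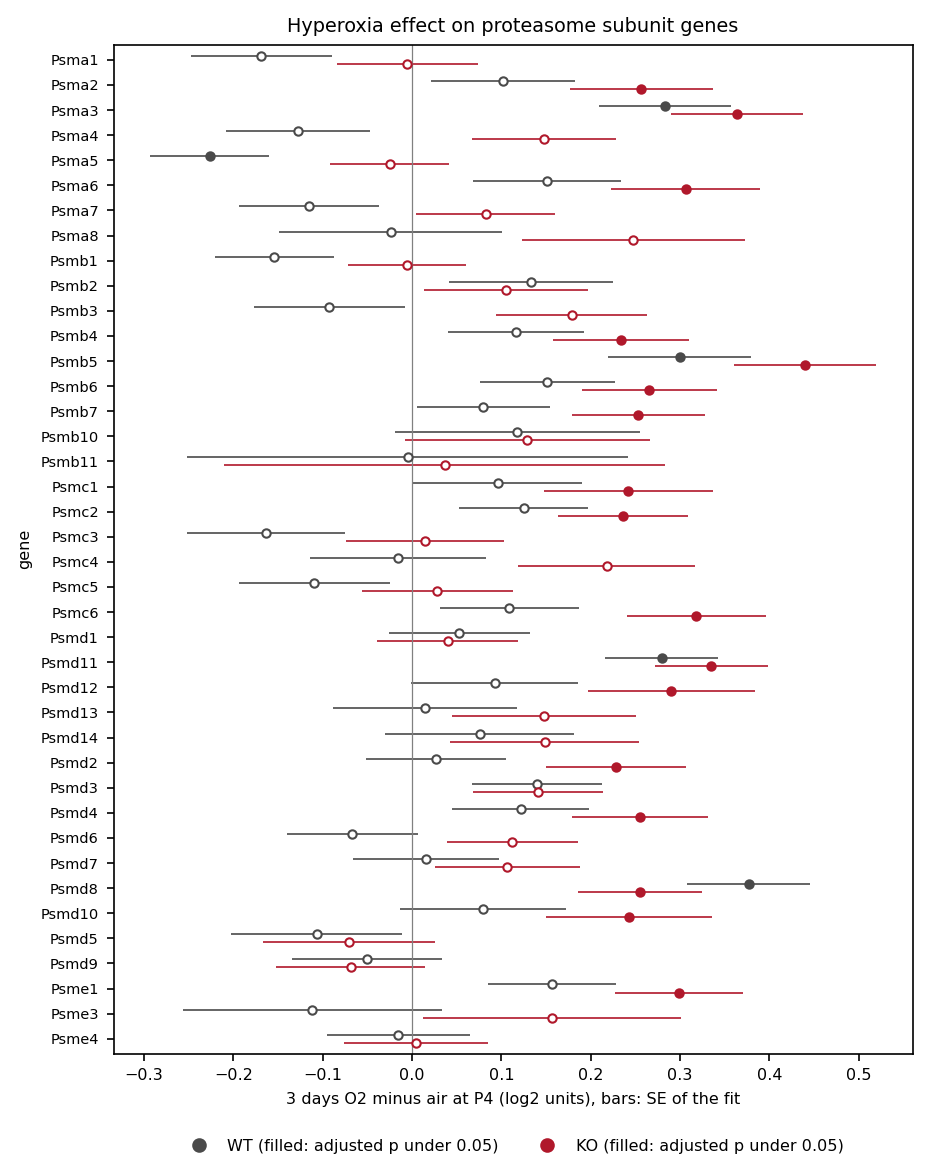
Difference between 3 days of hyperoxia and air at P4 in log2 units (horizontal axis) for each of the 40 genes (vertical axis) in wild type and knockout, with SE bars and filled points where the limma adjusted p is under 0.05. In wild type 5 points are filled and in the knockout 17, and Psmb5 has the largest knockout difference at 0.44.

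Whether hyperoxia acted differently in the knockout was tested directly as the difference of the differences. Averaged over the 3 times, 0 of 40 subunits were called by limma, with 1 at an unadjusted p under 0.05, where 1.19% of all genes were called. At 3 days 0 of 40 were called, with 3 at an unadjusted p under 0.05, where 0.561% of all genes were called. The 3-day values were positive for 36 of 40, with a median of 0.14 (0.16 in the core and 0.13 in the regulatory particle) beside 0.04 over all genes. Without replicate 2 of knockout air P4, the low mouse, they were positive for 30 of 40 with a median of 0.07, beside 0.00 over all genes. For Psmb5 the difference was 0.14 ± 0.11 (limma adjusted p = 0.579). The 17 calls in the knockout and 5 in wild type are therefore not shown to differ for any subunit.
After 1 day the values were negative for 39 of 40 with a median of -0.15 beside -0.04 over all genes. That direction rested on knockout air P2: without its replicate 1 the values were negative for 29 of 40 with a median of -0.05, and without replicates 1 and 3, both high in thymocyte genes, they were negative for 16 of 40 with a median of 0.02 on the 1 mouse left in that group. Psmb10 and Psmb11 were called after 1 day, where 2.69% of all genes were called. The number called was 0 without replicate 1 of knockout air P2, replicate 2 of wild-type hyperoxia P2 or replicate 1 or 2 of knockout hyperoxia P2, and 6 without replicate 2 of knockout air P2. After 2 days 0 of 40 were called by limma, with 1 at an unadjusted p under 0.05, where 1.76% of all genes were called.

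Knockout against wild type within hyperoxia, averaged over the 3 times (9 mice against 9), gave Psma4 higher and Psmb2, Psmc2 and Psma5 lower. That is 4 of 40, where 12.5% of all genes were called (6.30% higher and 6.18% lower).
Psma4 ranged from 11.24 to 11.47 (median 11.37) in wild type and from 11.42 to 11.66 (median 11.57) in the knockout, higher by 0.17 ± 0.05 (limma adjusted p = 0.0126). At P4 it was the only call of the 40 (9.82% of all genes were called): wild type read 11.24, 11.33 and 11.40 and the knockout 11.61, 11.57 and 11.65, without overlap. At P2 the call was Psmc2 (-0.28, 2.96% of all genes) and at P3 Psma5 (-0.23, 5.13% of all genes).
Psmb2, beta4, ranged from 10.32 to 10.71 (median 10.59) in wild type and from 10.21 to 10.53 (median 10.33) in the knockout, lower at all 3 times with a difference of -0.24 ± 0.05 (limma adjusted p = 0.00225). Psmc2, the ATPase Rpt1, ranged from 11.61 to 11.97 (median 11.83) and from 11.42 to 11.84 (median 11.67), with -0.19 ± 0.04 (limma adjusted p = 0.00184). Psma5 ranged from 11.35 to 11.73 (median 11.55) and from 11.26 to 11.52 (median 11.45), with -0.14 ± 0.04 (limma adjusted p = 0.0114).
Psma4 and Psmb2 each have 1 probe set. For Psmc2 and Psma5 a second probe set gave 0.00 and 0.02, and averaging the probe sets ended both calls (limma adjusted p = 0.207 and 0.222). The genotype differences of Psmc2 and Psma5 therefore rest on 1 probe set each.

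The inducible beta2i gene Psmb10 and the thymus beta5t gene Psmb11 had wider ranges of group means, 0.80 and 1.44, than the constitutive core subunits (highest 0.63, in Psmb5). In knockout air P2, Psmb10 read 10.09, 8.95 and 9.54 and Psmb11 7.13, 5.18 and 6.23, while the wild-type air P2 mice averaged 8.93 ± 0.07 for Psmb10 (SD, n = 3) and read 4.77, 4.74 and 4.72 for Psmb11. The core scores of the 3 knockout mice had the same order, at 0.19, -0.25 and -0.07. Replicates 1 and 3 of the knockout were the high ones for Psmb10 and Psmb11.
The same 2 mice were high in thymocyte genes. The score over 10 of 11 listed genes was 3.72, 1.03 and 2.78 in the 3 mice of knockout air P2 and between -0.35 and 1.28 in the other 13 groups. Rag1, a recombinase of developing lymphocytes, read 12.64, 8.97 and 12.05 in those 3 mice, beside a median of 5.41 over all arrays. Ptcra, the pre-T-cell receptor chain, read 8.55, 6.14 and 6.92 beside 5.70, and Cd3e read 10.06, 7.40 and 9.08 beside 7.07.
Under 1 day of hyperoxia the knockout mice read 8.83, 8.92 and 8.89 for Psmb10 and 4.70, 4.69 and 4.96 for Psmb11. The difference of the differences was -0.75 ± 0.19 for Psmb10 (limma adjusted p = 0.0304) and -1.43 ± 0.35 for Psmb11 (limma adjusted p = 0.0227). Without replicates 1 and 3 of knockout air P2 these were -0.17 and -0.43 (limma adjusted p = 0.671 and 0.613), with 1 mouse left in that group, which is assumed to vary like the other groups. At 3 days Psmb10 was not called: in the knockout it differed between hyperoxia and air by 0.13 ± 0.14 (limma adjusted p = 0.519), and in wild type by 0.12 ± 0.14 (limma adjusted p = 0.589).

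**Figure D5:**
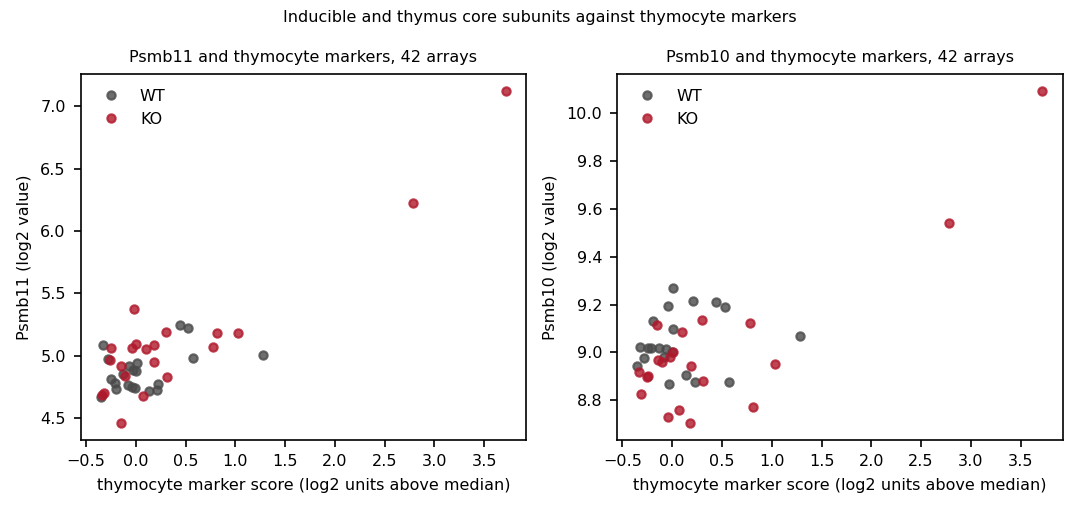
Log2 values of Psmb11 (left) and Psmb10 (right) on the vertical axes against the thymocyte marker score on the horizontal axes, in log2 units above the median array, for 42 arrays coloured by genotype. The 2 arrays at scores 3.72 and 2.78 are knockout air P2 mice and hold the 2 highest values of each gene.

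The activators differed among themselves, with a median r to the other genes of 0.54 for Psme3, 0.21 for Psme1 and -0.14 for Psme4. Psme1 fell with age in the knockout, from 11.34, 11.32 and 11.48 at P1 to 11.05, 10.94 and 11.14 at P4 (-0.34 ± 0.07, limma adjusted p = 0.000745), and the same P4 air mice are the reference of its 3-day hyperoxia effect. In wild type it read 11.36, 11.26 and 11.38 at P1 and 11.15, 11.16 and 11.24 at P4 (-0.15 ± 0.07, limma adjusted p = 0.158), and 11.30, 11.36 and 11.37 after 3 days of hyperoxia (0.16 ± 0.07, limma adjusted p = 0.108). Psme3 did not pass under 3 days of hyperoxia in wild type (9.41, 9.49 and 9.16, limma adjusted p = 0.632) or in the knockout (9.23, 9.62 and 9.59, limma adjusted p = 0.448). A second probe set of Psme3 of like mean level gave 0.43 in the knockout and passed (limma adjusted p = 0.00592 over all probe sets), and 0.17 in wild type (limma adjusted p = 0.338), so the knockout result for Psme3 depends on the probe set. Replicate 2 of knockout air P4 was again the low mouse for Psme3, in 9.57, 8.90 and 9.50. Psme4 was higher in the knockout at air P3, 10.42, 10.46 and 10.45 against 10.11, 10.15 and 10.11 in wild type (0.32 ± 0.08, limma adjusted p = 0.00395), without overlap. Averaged over the ages in air, the probe set used for Psme4 gave 0.03, and others of its 6 probe sets passed in both directions. They gave -0.12, 0.19 and -0.16 (limma adjusted p = 0.0105, 0.00293 and 0.0476 over all probe sets). These other probe sets were not read at P3 alone.

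Genes that build, bind or control the proteasome were read from lists of general knowledge. Of 15 assembly and associated genes measured, 4 rose and 1 fell with age in wild type, 26.7% higher beside 11.2% of all genes. Among them were Pomp, the maturation factor of the core (0.27 ± 0.07, limma adjusted p = 0.00282), and the assembly chaperones Psmg1 (0.37) and Psmg3 (0.45). Psmg2 (0.20), Psmg4 (0.17) and the inhibitor Psmf1 (-0.00) did not pass. Under 3 days of hyperoxia 3 rose and 1 fell in wild type, and 3 rose and 0 fell in the knockout, 20% higher in each beside 15.0% and 17.0% of all genes. Pomp did not pass in either (0.14 ± 0.07 in wild type, limma adjusted p = 0.115, and 0.10 ± 0.07 in the knockout, limma adjusted p = 0.299). Psmg3 passed in both (0.28 and 0.27), as did Usp14, a deubiquitinase of the regulatory particle (0.26 and 0.31), and Psmg2 fell in wild type (-0.31).
Nfe2l1, which encodes Nrf1, read 9.22, 9.26 and 9.27 in wild-type air P4 lungs and 9.43, 9.38 and 9.68 after 3 days of hyperoxia (0.25 ± 0.08, limma adjusted p = 0.0184). In the knockout it read 9.45, 9.27 and 9.60 and 9.44, 9.40 and 9.48 (0.00 ± 0.08, limma adjusted p = 0.988). Averaged over the ages in air it was higher in the knockout by 0.19 ± 0.04 (limma adjusted p = 0.000639).
Antioxidant targets of Nrf2 were read beside the subunits. Of 15 measured, 13 rose and 0 fell under 3 days of hyperoxia in wild type, with a median of 0.99. The difference of the hyperoxia effects between genotypes over the 3 times was called lower for 12 of 15. It was -1.22 ± 0.13 for Nqo1, a quinone reductase (limma adjusted p = 7.82e-07), and -0.80 ± 0.11 for Gclc, the catalytic subunit of glutathione synthesis (limma adjusted p = 7.02e-05). For the proteasome subunits it was called in 0 of 40, where 1.19% of all genes were called. The subunits moved less than the targets, with a median of 0.06 over the 40 after 3 days of hyperoxia in wild type. A genotype difference in them was therefore harder to call.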

How the data were processed

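RNA of 42 lungs was measured on Affymetrix 3′ arrays, 1 mouse per array. The authors deposited 1 log2 value per probe set and array, made with GCOS and RMA per the submitters' processing notes (no version given in the sources used here). That method evens out the distributions of the arrays, so much of a shift of all genes together would not be seen. Array medians over the genes used still ran from 7.52 to 7.75. Of 45101 probe sets, 34958 carried 1 symbol, 932 several and 9211 none in the annotation used, and those with 1 symbol were kept. The probe set with the highest mean stood for a gene. All arrays were fitted with 14 group means in limma 3.58.1 (R 4.3.3; lmFit, contrasts.fit, eBayes; 28 residual degrees of freedom, 28 contrasts, 6 of them leading) with Benjamini-Hochberg adjustment over 18194 genes, two-sided. Scripts were tested on simulated data. Groups came from the sample titles. Arrays give no depth, and their number limits the precision. Pups are separate mice, and litters are unknown here.

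The subunit genes and all lists were chosen with earlier results of these data known. Catalytic subunits, activators and, in each leading comparison, the called subunits of the 3 smallest p in each direction are given array by array, and any other gene by its value. Marker lists (15 lists, 153 of 181 genes measured) gave array scores for proliferation, liver, heart and skeletal muscle, thymocytes, erythroid cells, macrophages, neutrophils, lung epithelium and endothelium, interferon genes, ubiquitin genes, Nrf2 targets, regulators and assembly genes. Adrm1 was not analysed here. Replicate numbers in the titles did not pair mice: deviations of same-numbered arrays had a median r of 0.01, and 14 of 42 arrays were closest to one of their own number. The alternatives were other normalisation, weights, variance models, filters and probe-set rules, tissue scores, arrays left out and a replicate block. After seeing the data, fits without the thymocyte-high arrays, with every probe set on its own, and without single mice for the direction of all subunits were added.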

Additional observations from a re-analysis of the deposited data

Results flagged for a closer look

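For Psmb10 the effect of 1 day of hyperoxia differed between genotypes by -0.75 (limma adjusted p = 0.0304), and for Psmb11 by -1.43 (limma adjusted p = 0.0227). Both were picked out because the difference between the 2 genotypes passed its own test. Without knockout air P2 replicates 1 and 3 the differences were -0.17 and -0.43 (limma adjusted p = 0.671 and 0.613). That fit leaves 1 mouse in the group, which is assumed to vary like the other groups, so the lost calls say little beside the smaller differences. The part of thymocyte RNA, whose marker scores were 3.72 and 2.78 in these mice, was not tested beyond leaving them out.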

How the results depend on the processing

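For subunits called in the main fits, alternatives ended calls more often than they turned the direction. Other subunits were not followed gene by gene. Over all 40, the median genotype difference after 1 day went from -0.15 to 0.02 without the thymocyte-high arrays, with 1 mouse left in knockout air P2. The share of all genes called under each alternative is not given here. The counts below therefore cannot tell a change in the subunits from a change over all genes. For P4 against P1 in wild type, 9 calls became 14 with cyclic loess, 21 with array weights, 5 with the mean of all probe sets, 3 with other-tissue scores as covariates and 2 to 8 leaving out 1 mouse. For 3 days of hyperoxia, 5 calls in wild type became 10 with array weights and 1 without arrays high in other tissues (4 to 5 leaving out 1 mouse), and 17 in the knockout became 5 with only the arrays of the contrast (6 to 17 leaving out 1 mouse). Knockout against wild type gave 8 calls in air, 15 without the arrays high in thymocyte genes and 7 to 12 leaving out 1 mouse, and 4 in hyperoxia, 7 with array weights and 4 to 6 leaving out 1 mouse. For the genotype difference in the hyperoxia effect, 0 became 2 with array weights and 0 to 2 leaving out 1 mouse. With the replicate number as a block, the calls were 10, 8, 5, 17, 4 and 0 in the order P4 against P1, genotype in air, 3 days in wild type, 3 days in the knockout, genotype in hyperoxia and genotype difference; the numbers pair no mice. The core minus regulatory difference of medians was small and changed sign: in the knockout at 3 days from -0.0115 to 0.0875 with the mean of all probe sets and between -0.0263 and 0.0289 leaving out 1 mouse, in air from 0.0231 to -0.045 with tissue scores as covariates, and for the genotype difference from -0.0033 to 0.0425 with them. In wild type at 3 days it was 0.0154, 0.1062 without arrays high in other tissues, and -0.0086 to 0.0729 leaving out 1 mouse. Psma1 at P4 against P1 turned to -0.0847 with the mean of all probe sets. Leaving out all arrays high in other tissues removes every wild-type air P1 and P2 mouse, so P4 against P1, genotype in air and the genotype difference have no value under it. The causes of these changes were not tested, apart from the fewer arrays that some of them leave.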
